A study of Mus musculus with 24 samples.

Results

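The first day of hormonal induction of 3T3-L1 cells was described from 6 libraries, 3 of DMSO-treated cells at day 1 (replicates A, B and C) and 3 of DMSO-treated pre-adipocytes at day −2 (replicates A, B and C), of 24 libraries in the series. The members were chosen by their titles, which give treatment, day and replicate letter. 3T3-L1 is a mouse embryonic fibroblast line committed to the adipocyte lineage, and the series follows it at days −2, 1, 3 and 7 in DMSO or in ML-792, an inhibitor of the SUMO E1 enzyme. All groups were given 4-thiouridine at 100 μM for 45 min before harvest, and the same libraries were read as total 3′ mRNA and as labelled RNA. The day −2 cells were in calf serum medium without inducers. The day 1 cells were in fetal bovine serum medium with dexamethasone, IBMX (a phosphodiesterase inhibitor that raises cAMP) and insulin. Cells were grown to confluence before induction, and the study's methods do not say how far this had gone at day −2. Serum, inducers, time in culture and day all differ between the groups and cannot be told apart. The replicates are described as biological replicates of 1 cell line.

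In this protocol, confluent pre-adipocytes stop dividing, and the hormone cocktail sends them through further divisions, known as clonal expansion, before the adipocyte programme starts. Dexamethasone acts through the glucocorticoid receptor, IBMX through cAMP and CREB, and insulin through the insulin and IGF1 receptors. C/EBPβ and C/EBPδ are the early factors of this cascade, and C/EBPα and PPARγ are the later ones, which switch on the genes of the fat cell.

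The 6 libraries held 18788063 to 22292366 total reads over all 3′UTR entries of the mm10 table, and labelled reads, those with at least 1 T to C conversion, numbered 528191 to 820046 at day −2 and 235369 to 285203 at day 1. Values per library are normalised counts, that is, reads divided by the effective library size (scaling by TMM, the trimmed mean of M values) and multiplied by the mean effective size of the 24 libraries. A single entry stood for each gene, the one with the highest mean. Of the listed markers, all 9 fibroblast markers were measured, and their summed level was 611324 to 725388 normalised counts at day −2 and 380330 to 440391 at day 1. The collagen genes held most of that sum. *Col1a1*, *Col1a2*, *Pdgfrb* and *Thy1* were called lower at day 1, and *Col3a1*, *Dlk1*, *Pdgfra*, *S100a4* and *Vim* were not called. The summed level of the 7 adipocyte markers was 1249 to 2204 at day −2 and 1940 to 3461 at day 1. *Fabp4*, which held most of this sum, was not called, and of the 7 only *Cidec* and *Plin1* were, both higher. *Epcam*, *Krt8* and *Krt18* (epithelium), *Cdh5*, *Kdr* and *Tie1* (endothelium), *Adgre1* and *Ptprc* (macrophages), and *Myod1*, *Myog* and *Ckm* (muscle) were at 0 in all 6 libraries. Of the other listed markers, *Csf1r* (macrophages) was at 23.7 to 66.6 at day −2 and at 0 to 10.1 at day 1, *Cd68* at 13.4 to 32.9 and 33.1 to 37.3, and *Lyz2* at 0 to 25.4 and 0 to 3.3. *Des* (muscle) was at 17.9 to 36.4 and 10 to 11, *Pecam1* (endothelium) at 2.68 to 11.5 and 2.76 to 7.29, and *Cdh1* (epithelium) at 0 to 3.58 and 0. None of the tested ones among these was called, and their part in the results was not tested. In such bulk samples, fewer cells of a type and less RNA per cell cannot be told apart.

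By day 1, the total mRNA of 932 genes had risen and that of 1314 genes had fallen among 13331 genes tested (edgeR's quasi-likelihood test, adjusted p under 0.01), which are 6.99% and 9.86% of the genes, and the median log2 fold change was 0.0035. The counts of list members that rose or fell in total reads, here and below, are to be read against these 2 percentages. Of the lists examined, 39 of 49 mitosis genes and 12 of 24 glucocorticoid responsive genes rose, and 22 of 25 interferon response genes, 20 of 24 cholesterol synthesis genes and 21 of 39 targets of SRF and YAP fell. Over entries, 3642 of 26563 (13.7%) were called, 1446 higher and 2196 lower. With the replicate letter as a block the number was 5628. The 3 libraries of day 1 all lay above those of day −2 in 20.2% of genes and all below in 23.1%.

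Labelled reads moved downwards as a whole. With a single entry per gene, the labelled share of a library was 3.67%, 2.73% and 3.17% at day −2 and 1.26%, 1.21% and 1.36% at day 1. The means were 3.19% ± 0.471 and 1.28% ± 0.0744 (SD, n = 3 each), a difference of −1.92 percentage points and a 2.50-fold lower share at day 1. Each day −2 library lay above each day 1 library, and the two-sided exact permutation test gave p = 0.1, the smallest that 3 against 3 allows. Among 1966 genes with at least 1000 reads in each library, the median labelled share was 1.61% to 2.30% at day −2 and 0.809% to 0.941% at day 1, and the 1st percentile was 0.176% to 0.356% and 0.0549% to 0.129%. Uptake of the label, the pool of uridine in the cells and the rate of synthesis cannot be told apart in these values, and cells without label were not analysed here.

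On the scale of total library sizes, the median labelled log2 fold change over 6434 genes was −1.20, with 36 genes higher (0.56%) and 1218 lower (18.9%). When the scale was instead set from labelled reads, 187 genes were higher (2.91%) and 190 lower (2.95%), with a median of 0.06. A labelled value near −1.20 on the first scale therefore marks a gene that followed the library. The counts of both scales are given below for each list whose labelled reads are described.

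**Figure D1:**
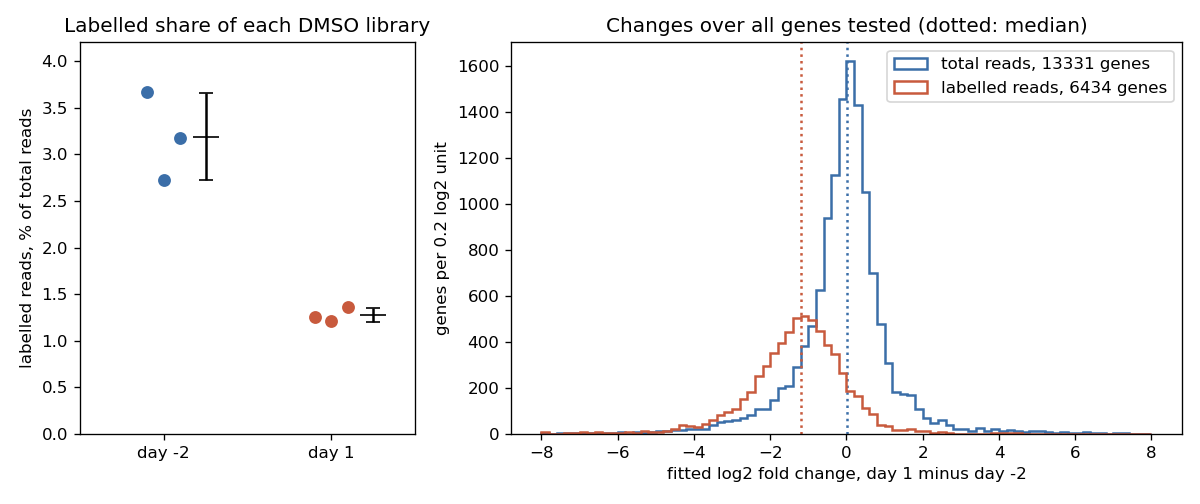
Labelled share of each library in percent (left; points are libraries of day −2 and day 1) and histograms of the log2 fold change, day 1 minus day −2, of total and of labelled reads over genes, with the median marked. The 3 shares of day −2 (2.73% to 3.67%) lie above those of day 1 (1.21% to 1.36%), and the labelled median is −1.20 against 0.0035 for total reads.

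Among called genes whose libraries did not overlap between the days and whose higher day had a mean of at least 100 normalised counts, the 10 with the highest fitted change were *Pip*, *Retnla*, *Ear2*, *Ren1*, *Fam107a*, *Ang4*, *Lcn2*, *Krt13*, *Ang5* and *Serpina3m*. *Pip*, which encodes prolactin-induced protein, was at 4.09, 14.3 and 8.88 normalised counts at day −2 and at 5601, 7920.3 and 5870.0 at day 1, a log2 fold change of 9.47 ± 0.44 (SE, adjusted p = 4.0e-09, edgeR). Its counted 3′UTR lies at chr6:41851964-41852062 on the plus strand of mm10. *Ren1*, the gene of renin, went from 11.5, 4.47 and 6.22 to 1142, 725 and 1391 (log2 fold change 7.16 ± 0.44, adjusted p = 3.3e-08). *Lcn2*, the gene of the iron-siderophore carrier lipocalin 2 and a known glucocorticoid target, went from 32.7, 37.6 and 40 to 2876, 2458 and 3104 (log2 fold change 6.25 ± 0.25, adjusted p = 1.1e-09). The reads of *Ang4*, *Ang5*, *Ear2* and *Serpina3m* could be shared with near-identical paralogs, so their split between family members is uncertain.

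These early rises had different courses later in the same DMSO cells, whose fold changes share the day −2 libraries and are given here as levels only. *Pip* stood at 2483 ± 399 (SD, n = 3) at day 3 and at 17.6 ± 9.94 at day 7, and *Ren1* at 1316 ± 582 and 8.52 ± 2.02. *Lcn2* was at 4167 ± 581 and 4044 ± 1014, and *Fam107a* at 308 ± 61.2 and 1675 ± 144. *Pip* and *Ren1* were thus back near their day −2 levels at day 7, and *Lcn2* and *Fam107a* were not.

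Of 24 measured genes listed as glucocorticoid responsive, 12 rose and 1 fell, with a median log2 fold change of 0.86 (all genes 0.0035). *Glul*, the gene of glutamine synthetase, was at 291, 251 and 249.6 normalised counts at day −2 and at 12388, 11659.5 and 11312 at day 1 (log2 fold change 5.48 ± 0.18, adjusted p = 1.3e-10). *Zbtb16*, which encodes a zinc finger transcription factor, went from 218, 136 and 213 to 5536, 3820.3 and 5188 (4.68 ± 0.25, adjusted p = 1.2e-08). *Fkbp5*, the gene of a chaperone that feeds back on the glucocorticoid receptor, went from 900.0, 1109.8 and 995 to 10584, 14571 and 10352 (3.56 ± 0.19, adjusted p = 1.2e-08). In each of these genes the replicates of a day lay close together and the days were far apart. *Tsc22d3*, which encodes GILZ, rose as well (2.96 ± 0.18, adjusted p = 3.8e-08). The exceptions stood in the same list. *Sgk1*, the gene of a serum and glucocorticoid regulated kinase, fell from 2193, 2509 and 2664 to 685, 927 and 854 (−1.58 ± 0.19, adjusted p = 2.4e-05), and *Per1* was at 889, 596 and 1218 before and at 1294, 1068 and 1538 after induction, which did not pass the test (adjusted p = 0.12) but did with the replicate block (adjusted p = 0.0062).

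The labelled reads of this list split in both directions, with 5 of 21 genes higher and 6 lower and a median of −0.83, which became 0.44 with 5 higher and 1 lower when scaled by labelled reads. The 5 that rose were *Fkbp5*, *Tsc22d3*, *Zbtb16*, *Lcn2* and *Glul*. Labelled reads of *Zbtb16* were 14.7, 2.68 and 11.5 normalised counts at day −2 and 129, 158 and 160.0 at day 1 (log2 fold change 3.92 ± 0.47, adjusted p = 4.4e-09). For *Glul* they were 13.9, 1.79 and 0 and then 119, 104 and 96.5 (4.28 ± 0.54, adjusted p = 4.5e-08). Both genes thus rose in the labelled reads while the labelled reads of the library fell. The labelled share of the summed reads of the list was 9.85% ± 0.194 at day −2 and 2.30% ± 0.223 at day 1 (SD, n = 3 each). That is a 4.29-fold lower share, beside 2.50-fold for the whole library. Such a sum is weighted by its most abundant genes. Gene by gene, relative to the shift of the library (the test is described below), none of the 21 shares was called higher and 2 were called lower.

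Of 25 measured cAMP responsive genes, 10 rose and 5 fell, with a median of 0.84. The phosphodiesterases *Pde3b*, *Pde4b*, *Pde4d*, *Pde7b* and *Pde10a*, enzymes that degrade cAMP or cGMP and here chosen after their values were seen, were 5 of the 10 that rose, with log2 fold changes from 1.66 (*Pde4b*) to 2.60 (*Pde7b*). *Rgs2*, the gene of a regulator of G protein signalling, went from 3974, 3114 and 4282 normalised counts to 31013, 23179.7 and 27875 (2.85 ± 0.18, adjusted p = 4.7e-08). Its labelled reads also rose, from 329, 223 and 387 to 832, 687 and 844 (1.33 ± 0.29, adjusted p = 5.0e-04). *Dio2*, which encodes the deiodinase that activates thyroid hormone, went from 9.82, 1.79 and 3.55 to 45.1, 59.2 and 47.8 (3.28 ± 0.67, adjusted p = 0.0021), but the call was lost without day −2 replicate C (adjusted p = 0.0125). The rapid cAMP targets did not follow: *Nr4a1*, the gene of an orphan nuclear receptor, fell from 9649, 6611 and 7669.5 to 2926, 3714 and 3166 (−1.29 ± 0.23, adjusted p = 8.6e-04), and *Nr4a2* was at 277, 299.6 and 269 and then at 293, 302 and 276 (adjusted p = 0.92). *Ppargc1a*, which encodes the coactivator PGC-1α, fell from 579, 509 and 448 to 90.1, 98.4 and 65.2 (−2.60 ± 0.28, adjusted p = 7.9e-06). Across the list, labelled reads rose in 1 and fell in 6 of 20 genes, and scaled by labelled reads 4 rose and 4 fell.

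Both lists were set beside the promoters given by RefSeq on GRCm38.p6 (250 bases before to 50 after the annotated start, 32851 windows of 27025 genes). The cAMP response element TGACGTCA was searched on both strands. It was in 1 of the 9 rising cAMP genes with a window, *Dio2*, and in 2.03% of all genes. It is shown in capitals on the strand of the gene, at chr12:90739118-90739141 on the minus strand, 95 bases before the start.

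*Dio2*: tttctcaaTGACGTCAagatcttt

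The palindromic glucocorticoid element (AGAACA, any 3 bases, TGTTCT) was in none of the 8 rising glucocorticoid genes with a window. It was in the window of *Sgk1*, which fell, and in 3 of all 27025 genes.

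Of the 24 lists, mitosis had the largest share of members that rose. Of 49 measured genes of mitosis, 39 rose and none fell, with a median log2 fold change of 1.63, where 6.99% of all genes rose. *Ccnb1*, the gene of cyclin B1, was at 379.6, 250.4 and 407 normalised counts at day −2 and at 1959, 1157 and 1706 at day 1 (2.22 ± 0.29, adjusted p = 4.8e-05). *Cdk1*, its kinase partner, went from 1442, 1021 and 1461 to 5018, 3532 and 4973 (1.79 ± 0.28, adjusted p = 2.3e-04). In both, replicate B was the lowest on either day, and the days did not overlap. *Top2a*, the gene of DNA topoisomerase IIα, went from 1346, 1248 and 1422 to 9062, 6803 and 9672 (2.67 ± 0.20, adjusted p = 1.7e-07), and *Cdc20*, the gene of an activator of the anaphase promoting complex, from 812, 943 and 1116 to 3704, 4263 and 4187 (2.08 ± 0.27, adjusted p = 5.0e-05). *Ube2c*, which encodes the ubiquitin conjugating enzyme of that complex, rose as well (2.49 ± 0.24, adjusted p = 2.5e-06).

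At day 3, *Ccnb1* was at 511 ± 162 and *Top2a* at 2372 ± 337 (SD, n = 3), below their day 1 levels and with means above each day −2 library. At day 7 they were at 90.4 ± 27.8 and 319 ± 56.3, with means below each day −2 library.

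A pair of short motifs is known from promoters of genes of the G2 and M phases, the cell cycle homology region TTTGAA and the CCAAT box, bound by NF-Y. Both strands were searched. TTTGAA was in 25 of the 32 rising mitosis genes that had a window (78.1%) and in 20.2% of all 27025 genes, and CCAAT was also in 25 of the 32 (78.1%) and in 41.1% of all genes. The windows are from RefSeq, and a match is a run of letters and not a site of binding. The following examples show TTTGAA, or its reverse complement TTCAAA, in capitals on the strand of each gene, from the genes with values above.

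*Cdc20*, chr4:118437348-118437369, minus strand, 18 bases before the start: agttgggtTTTGAAggagccaa

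*Cdk1*, chr10:69352914-69352935, minus strand, 15 bases before the start: gcggcgagTTTGAAactgctgg

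*Ube2c*, chr2:164769892-164769913, plus strand, 29 bases before the start: ggttgcaaTTCAAAcgcgggcg

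*Top2a*, chr11:99024199-99024220, minus strand, 23 bases before the start: gataaaggTTCAAAtgaaacta

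*Ccnb1* had no TTTGAA in its window but had CCAAT at 99 and 67 bases before the start, the second of them at chr13:100786541-100786561 on the minus strand.

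*Ccnb1*: cgaactggCCAATgaggagcg

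Labelled reads of mitosis genes held their level on the scale of total libraries. Of 29 tested, 2 rose (*Cdc20* and *Top2a*) and none fell, with a median of 0.52, against −1.20 for all genes. Scaled by labelled reads, 7 rose and the median was 1.77. Labelled reads of *Top2a* were 34.4, 23.3 and 23.1 at day −2 and 88.3, 86.5 and 138 at day 1 (1.95 ± 0.49, adjusted p = 0.0018), a call that was lost without replicate C of either day (adjusted p = 0.0118 and 0.0181). For *Cdc20* they were 19.6, 8.94 and 19.5 and then 38.6, 73.8 and 82.5 (2.01 ± 0.52, adjusted p = 0.0027), lost without day −2 replicate B, day 1 replicate B or day 1 replicate C (adjusted p = 0.0161, 0.0109 and 0.0199).

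Of 48 measured DNA replication genes, 20 rose and none fell, with a median of 0.83. *Rrm2*, the gene of the small subunit of ribonucleotide reductase, went from 250.4, 281 and 238 normalised counts to 806, 1312 and 788 (1.92 ± 0.23, adjusted p = 2.1e-05), and *Tk1*, the gene of thymidine kinase, from 430.4, 333 and 531 to 1364, 856 and 1379 (1.48 ± 0.28, adjusted p = 0.0013). *Mcm5*, the gene of a subunit of the replicative helicase, went from 628, 498 and 545 to 1373, 1325 and 1464 (1.32 ± 0.20, adjusted p = 2.0e-04). The other helicase genes named by the rule, *Mcm2*, *Mcm3* and *Mcm4*, had log2 fold changes of 0.31, 0.67 and 0.67, and none was called, though *Mcm3* and *Mcm4* were with the replicate block (adjusted p = 0.0062 and 0.0060). Labelled reads of replication genes neither rose nor fell by the test in any of 23 genes, with a median of −0.10 (scaled by labelled reads, 4 rose, none fell and the median was 1.21). The E2F letters TTTGGCGC, on either strand, were in 2 of 16 rising replication genes with a window and in 0.585% of all genes. Another E2F motif, GCGGGAAA on either strand, was in 1 of the 16 (*Mcm7*) and in 1.24% of all genes. *Mcm5* is shown with the reverse complement of TTTGGCGC in capitals, at chr8:75109352-75109375 on the plus strand, 149 bases before the start.

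*Mcm5*: gaactttcGCGCCAAAacgtccag

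The G1 regulators gave few calls in total reads. Of 29 cyclins, CDK inhibitors and E2F factors, 1 rose, 2 fell and the median was 0.05. Among all genes 6.99% rose and 9.86% fell, so these counts are not a result about the list. *Ccnd3*, the gene of cyclin D3, went from 1673, 1331 and 1770.0 to 3565, 3078 and 3345 (1.07 ± 0.19, adjusted p = 8.7e-04), and *Ccnd2*, the gene of cyclin D2, fell from 52584, 49722 and 49329 to 20106, 23990.4 and 18633 (−1.27 ± 0.16, adjusted p = 2.8e-05). *Ccnd1* was at 11755, 12370.0 and 11748 and then at 8275, 9257 and 7439.5, which did not pass the threshold (−0.52 ± 0.15, adjusted p = 0.022) although the days did not overlap, and which was called with the replicate block (adjusted p = 0.0021). In labelled reads, 5 of 17 genes of the list fell and none rose, where 18.9% of all genes fell. Scaled by labelled reads, 2 fell and none rose.

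**Figure D2:**
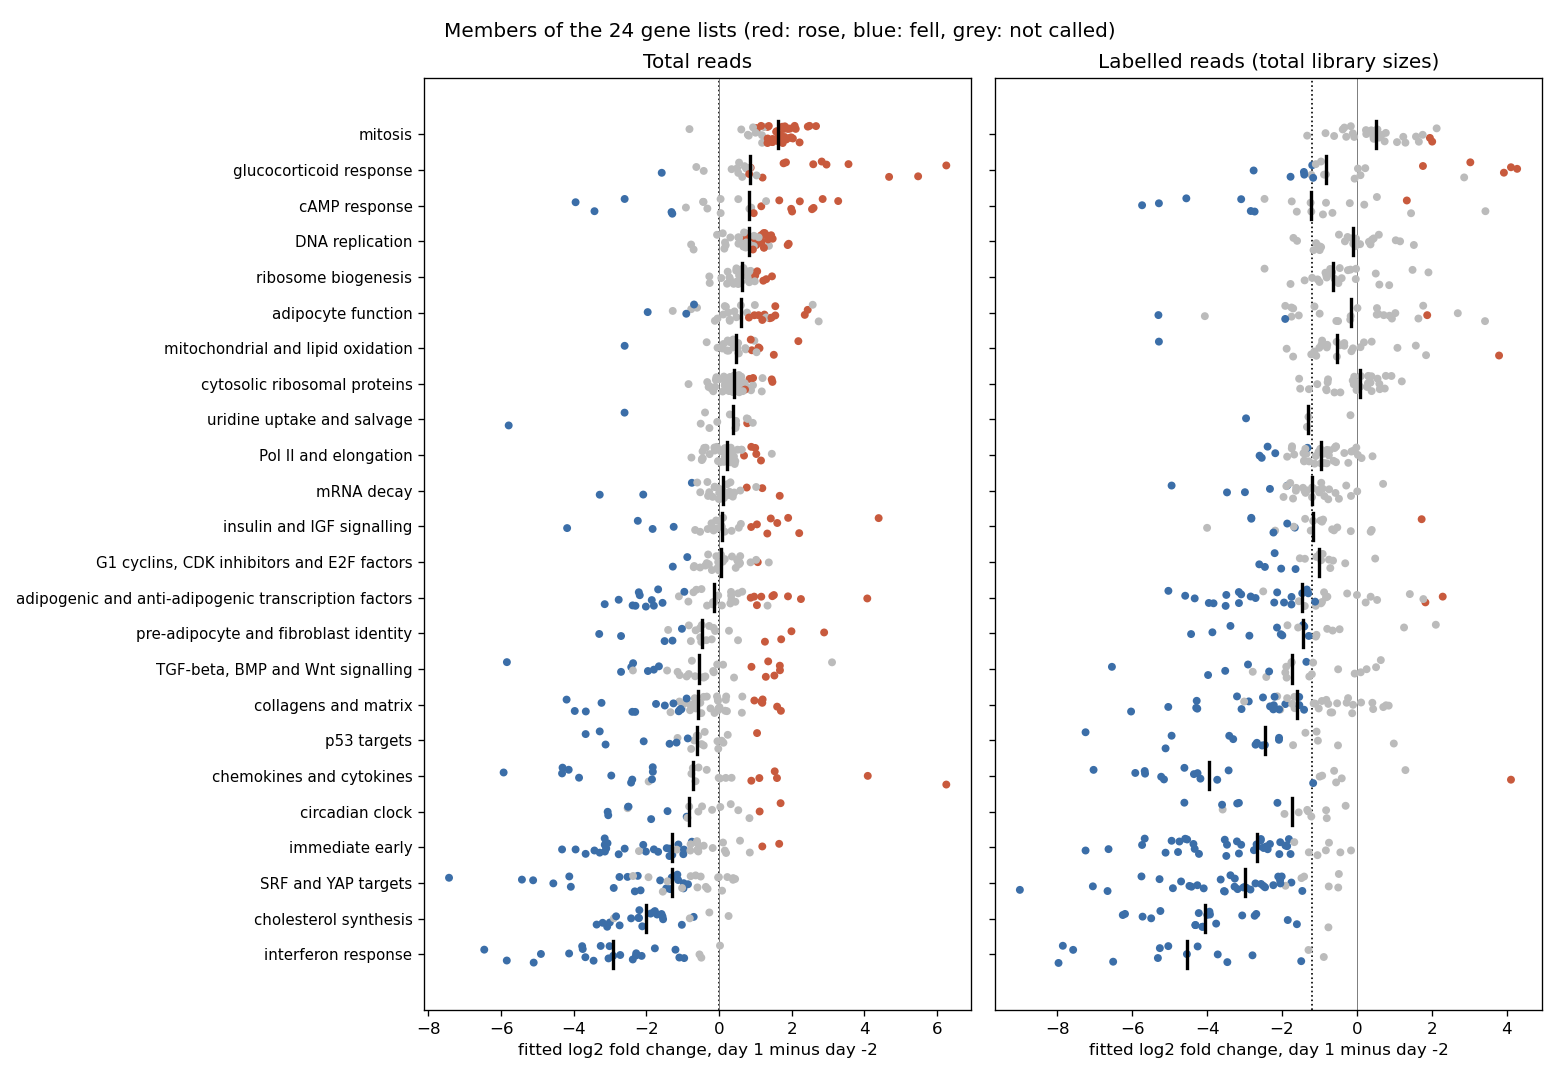
Log2 fold change, day 1 minus day −2, of every tested gene of 24 lists, total reads left and labelled reads on the scale of total library sizes right. Red points rose, blue points fell and grey points were not called. The black bar is the list median and the dotted line the median of all genes, which lies at 0.0035 on the left and at −1.20 on the right. The median of mitosis lies to the right of the line in both panels, and those of interferon, cholesterol and SRF and YAP genes lie to the left of it in both.

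Among 40 transcription factors that promote or oppose adipogenesis, 9 rose and 12 fell, with a median of −0.15. Of all genes, 6.99% rose and 9.86% fell. *Klf5*, the gene of an early activator of *Pparg*, went from 374, 265 and 445 normalised counts to 6603, 3661 and 8065 (4.08 ± 0.35, adjusted p = 7.4e-07). *Cebpa* went from 352, 231 and 319 to 1526, 1284 and 1490.4 (2.25 ± 0.24, adjusted p = 7.3e-06). In both genes each day 1 library was above each day −2 library. *Pparg* was at 542, 678 and 509 at day −2 and at 2135, 2397 and 1910.2 at day 1 (1.90 ± 0.44, adjusted p = 0.0057), but it was not called with the replicate block (adjusted p = 0.0261) or without any one of the 6 libraries (adjusted p from 0.012 to 0.0287). The early factors rose by less. *Cebpb* went from 1586, 2448 and 1451 to 3533, 5429 and 3312 (1.16 ± 0.26, adjusted p = 0.0047), and *Cebpd* from 2427, 2856 and 2492 to 4513, 5805 and 3897 (0.87 ± 0.18, adjusted p = 0.0027). Both calls were lost without day −2 replicate A, day −2 replicate C or day 1 replicate B (adjusted p from 0.0133 to 0.0293).

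The factors that fell included *Klf2* (−3.15 ± 0.24, adjusted p = 2.5e-07), which is known to repress *Pparg*, and *Ddit3* (−2.38 ± 0.18, adjusted p = 2.6e-07), which encodes the C/EBP partner CHOP, an inhibitor of C/EBPβ binding. *Ddit3* was at 4479, 3913 and 4785 normalised counts and then at 806, 767 and 958. The list also held falls of factors known to favour the lineage, *Egr2* (−2.76 ± 0.25, adjusted p = 1.1e-06) and *Zfp423* (−1.79 ± 0.21, adjusted p = 1.6e-05), the latter known for fixing the pre-adipocyte state.

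In labelled reads, 2 of 39 factors rose, *Klf5* and *Cebpa*, and 21 fell, with a median of −1.46. Scaled by labelled reads, 3 rose and 7 fell. *Cebpa* had 10.6, 1.79 and 10.7 labelled normalised counts at day −2 and 38.6, 20 and 24.7 at day 1 (1.83 ± 0.50, adjusted p = 0.0043). The call was lost without day 1 replicate A or day −2 replicate B (adjusted p = 0.0384 and 0.0352). *Pparg* had 26.2, 35.8 and 15.1 and then 69.9, 84.7 and 51.1, and the days did not overlap, but the change did not pass the threshold (1.41 ± 0.46, adjusted p = 0.015), which it did with the replicate block (adjusted p = 0.0080). *Cebpb* had 249, 260.2 and 219 and then 99.3, 197 and 115, lower in labelled while higher in total reads. The labelled change was not called (−0.83, adjusted p = 0.063) and was a smaller fall than the labelled median of all genes, −1.20. Its labelled share was 15.7%, 10.6% and 15.1% at day −2 and 2.81%, 3.62% and 3.46% at day 1.

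Genes of adipocyte function had begun to move in part. Of 33 measured, 11 rose and 3 fell, with a median of 0.60. *Lipe*, the gene of hormone-sensitive lipase, went from 245, 202 and 226 normalised counts to 1358, 874 and 1427 (2.44 ± 0.22, adjusted p = 1.1e-06), and *Pnpla2*, which encodes adipose triglyceride lipase, from 577, 480.2 and 694 to 3103, 2636 and 3248 (2.36 ± 0.20, adjusted p = 6.6e-07). *Cidec*, the gene of a lipid droplet protein, went from 120.3, 187 and 97.7 to 429, 389.9 and 365 (1.55 ± 0.24, adjusted p = 2.1e-04). The lipases and the droplet protein were thus above their day −2 range in all replicates. *Adipoq*, the gene of adiponectin, was at 245, 404 and 220.2 and then at 314, 377 and 251 (0.12 ± 0.23, adjusted p = 0.77), and the days overlapped. *Fabp4*, the gene of a fatty acid carrier, was at 903, 1350.4 and 816 and then at 1759, 2405 and 1069.7 (0.77 ± 0.31, adjusted p = 0.094), called with the replicate block (adjusted p = 0.0042) and with no filter on low counts (adjusted p = 0.0026). By day 7 these genes stood far higher, *Adipoq* at 108095 ± 6519, *Fabp4* at 148433 ± 10724 and *Lipe* at 27638 ± 2549 (SD, n = 3). *Elovl6*, which encodes a fatty acid elongase, fell from 1078, 1778 and 821 to 293, 397 and 252 (−1.96 ± 0.29, adjusted p = 1.5e-04).

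Labelled reads of adipocyte genes rose in 1 of 27 (*Pnpla2*) and fell in 2 (*Elovl6* and *Fasn*), with a median of −0.17. Scaled by labelled reads, 5 rose, 1 fell and the median was 1.06, so the direction of the median depends on the scale. *Pnpla2* had 10.6, 4.47 and 14.2 labelled normalised counts and then 38.6, 24.6 and 45.4 (1.88 ± 0.43, adjusted p = 7.8e-04). *Fasn*, the gene of fatty acid synthase, was not called in total reads (adjusted p = 0.75) and fell in labelled reads (−1.92 ± 0.46, adjusted p = 0.0015), but not when scaled by labelled reads (−0.60, adjusted p = 0.41).

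**Figure D3:**
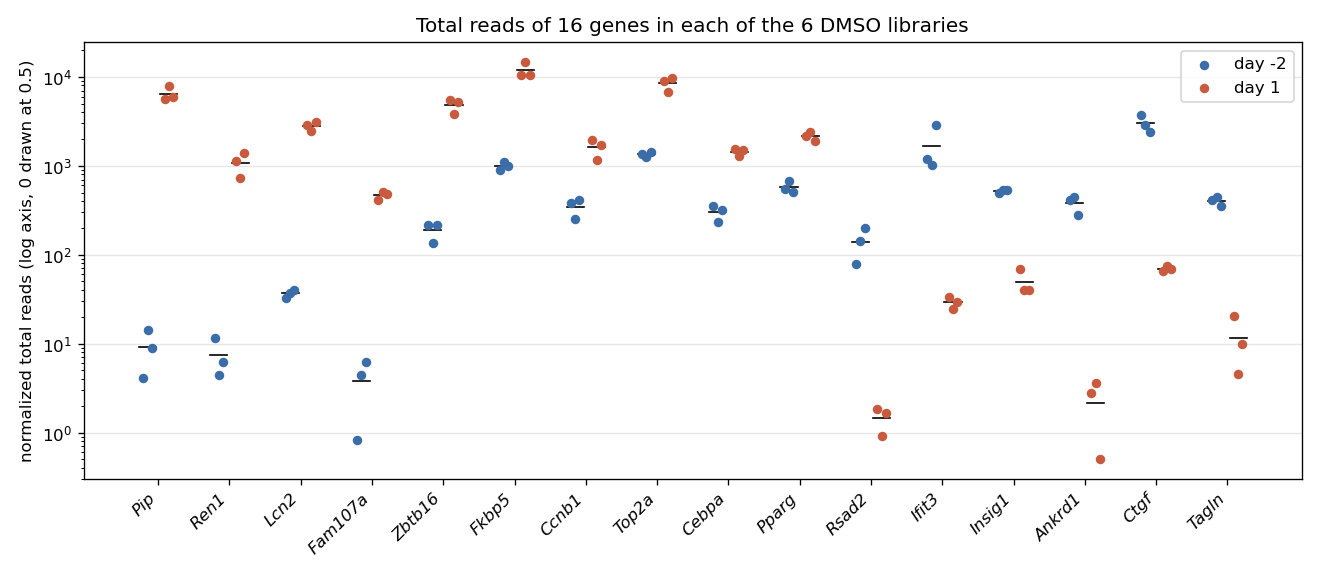
Normalised counts of total reads on a log axis for 16 genes in the 3 libraries of day −2 and of day 1, with the mean of each day as a bar and counts of 0 drawn at 0.5. *Pip*, *Ren1*, *Lcn2*, *Fam107a*, *Zbtb16*, *Fkbp5*, *Ccnb1*, *Top2a*, *Cebpa* and *Pparg* lie higher at day 1, and *Rsad2*, *Ifit3*, *Insig1*, *Ankrd1*, *Ctgf* and *Tagln* lie lower.

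Of the 24 lists, the interferon response had the largest share of members that fell. Of 25 measured interferon response genes, 22 fell and none rose, with a median log2 fold change of −2.91 (9.86% of all genes fell). *Rsad2*, which encodes the antiviral protein viperin, was at 78.5, 143 and 199.8 normalised counts at day −2 and at 1.84, 0.911 and 1.65 at day 1 (−6.46 ± 0.63, adjusted p = 2.5e-06). *Ifit3* fell from 1186, 1013 and 2838 to 33.1, 24.6 and 29.7 (−5.84 ± 0.38, adjusted p = 6.0e-08), and *Ifit1* from 1642, 2451 and 3523 to 72.6, 96.6 and 85 (−4.90 ± 0.32, adjusted p = 5.2e-08). Both encode proteins that bind or sense foreign RNA, and replicate C was their highest library at day −2. *Isg15*, the gene of a ubiquitin-like modifier, fell from 486, 1139 and 683 to 41.4, 88.4 and 39.6 (−3.77 ± 0.37, adjusted p = 3.1e-06). Reads of *Ifit3* and *Ifit3b* may be split between near-identical copies, and *Ifit3b* fell too (−7.06 ± 0.59, adjusted p = 1.8e-06). *Ifi47* and *Oas2*, outside the list, were also among the 10 lowest fitted changes chosen by the rule. At day 7, *Ifit1* was at 15.6 ± 5.54 and *Ifit3* at 14.3 ± 2.66, still low.

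The interferon stimulated response element has the core GAAA, any 2 bases, GAAA, a motif chosen with the falls known. It was found, on either strand, in 11 of the 19 falling interferon genes with a window (57.9%) and in 3.99% of all genes. Examples are printed with the core, or its reverse complement, in capitals on the strand of the gene, for 4 genes whose values the paragraphs on the interferon genes give.

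*Ifit1*, chr19:34640796-34640821, plus strand, 85 bases before the start: agtctcagTTTCAGTTTCtcactgct

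*Ifit3*, chr19:34583399-34583424, plus strand, 122 bases before the start: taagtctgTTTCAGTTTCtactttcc

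*Isg15*, chr4:156200873-156200898, minus strand, 72 bases before the start: aggaaaagGAAACCGAAAcagaaaat

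*Rsad2*, chr12:26456555-26456580, minus strand, 120 bases before the start: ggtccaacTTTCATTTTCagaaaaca

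In labelled reads, 13 of 15 interferon genes fell and none rose, with a median of −4.54. Scaled by labelled reads, 8 fell and the median was −3.30. *Gbp2*, the gene of a guanylate binding GTPase, had 41.7, 22.4 and 27.5 labelled normalised counts at day −2 and none at day 1, at least 11.5-fold lower against a floor of 3 reads per library. *Usp18*, which encodes the protease that removes ISG15, had 40.9, 19.7 and 24 and then none, at least 10.6-fold lower. *Ifit1* kept its labelled share, at 15.1%, 8.61% and 19.3% before and 15.2%, 9.43% and 33% after, 1 library being over 30%. The labelled share of the summed reads of the list was 2.32% ± 0.472 and then 0.908% ± 0.0858 (SD, n = 3 each), a 2.56-fold lower share, beside 2.50-fold for the whole library. Gene by gene, relative to the shift of the library, 1 of the 15 shares was called higher and none lower.

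Genes of cholesterol synthesis fell with them. Of 24 measured, 20 fell and none rose, with a median of −2.0. *Insig1*, the gene of the sterol sensor partner that holds SREBP back, was at 488, 529 and 530.2 normalised counts and then at 69.9, 40.1 and 39.6 (−3.37 ± 0.23, adjusted p = 9.5e-08). *Hmgcs1*, the gene of the synthase that makes HMG-CoA, fell from 7503, 7052 and 6235 to 1639, 1355 and 1471 (−2.22 ± 0.19, adjusted p = 9.0e-07). *Msmo1*, which encodes a sterol methyl oxidase, fell from 7173, 6593 and 6114 to 804, 620.3 and 733 (−3.20 ± 0.17, adjusted p = 1.2e-08). In these 3 genes every day 1 library lay far below every day −2 library. *Mvd*, the gene of mevalonate diphosphate decarboxylase, had a log2 fold change of −2.11 ± 0.22 (adjusted p = 4.1e-06).

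Labelled reads fell in 19 of 20 cholesterol genes, with a median of −4.05, and in 10 of 20 when scaled by labelled reads (median −2.78). The labelled share of the summed reads of the list was 5.64% ± 1.05 at day −2 and 1.33% ± 0.189 at day 1 (SD, n = 3 each). That is a 4.26-fold lower share, beside 2.50-fold for the whole library. Gene by gene, relative to the shift of the library, none of the 20 shares was called. Labelled reads of *Insig1* were 104, 109 and 133 and then 2.76, 1.82 and 1.65 (−5.72 ± 0.59, adjusted p = 4.7e-11), and those of *Hmgcs1* were 704, 482 and 476 and then 20.2, 29.1 and 33.8 (−4.31 ± 0.39, adjusted p = 6.3e-13). On the total side, *Hmgcs1* was at 9789 ± 1704 and *Msmo1* at 5101 ± 115 (SD, n = 3) at day 3, above their day 1 libraries. The sterol element was searched as TCAC, any base and CCAC, and was chosen with the falls known. It was in 1 of 13 falling genes with a window, *Hmgcs1*, and in 1.44% of all genes. It is shown in capitals at chr13:119690206-119690230, plus strand, 137 bases before the start.

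*Hmgcs1*: tcaccgtcTCACCCCACttcccagg

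Among 39 measured targets of SRF (serum response factor, which reads the actin state) and YAP (which reads cell contact and tension), 21 fell and none rose, with a median of −1.30. *Ankrd1*, a YAP target counted at chr19:36111965-36112706 on the minus strand, went from 409.9, 447 and 281 normalised counts to 2.76, 3.64 and 0 (−7.43 ± 0.54, adjusted p = 1.5e-07). *Ctgf*, which encodes a matricellular growth factor, went from 3687, 2886 and 2403 to 65.3, 74.7 and 68.5 (−5.43 ± 0.41, adjusted p = 2.3e-07). *Tagln*, the gene of the actin binding protein transgelin, went from 416, 443 and 353 to 20.2, 4.55 and 9.9 (−5.12 ± 0.49, adjusted p = 2.4e-06). *Acta2*, which encodes smooth muscle actin, went from 57586, 31267 and 63409.5 to 2020.2, 1828 and 2598 (−4.56 ± 0.36, adjusted p = 3.4e-07). For all 4 genes the lowest day −2 library lay far above the highest day 1 library. *Cyr61*, a close relative of *Ctgf*, was at 12299, 23379 and 8439.5 and then at 3469, 5396 and 2615, which missed the threshold (−1.94 ± 0.53, adjusted p = 0.015). It was called with all 24 libraries or only the 6 in the fit (adjusted p = 0.0054 and 0.0052) and with no filter on low counts (adjusted p = 3.1e-17).

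The CArG box bound by SRF was searched as the letters CC, 6 bases of A or T, and GG. It was in 5 of 16 falling genes of this list with a window (31.2%) and in 1.81% of all genes, and in 2 of 21 falling immediate early genes with a window (9.52%). The 3 members shown carry it in capitals.

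*Myl9*, chr2:156775295-156775320, plus strand, 161 bases before the start: agcagaggCCTAATAAGGccgggctg

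*Cnn2*, chr10:79988536-79988561, plus strand, 56 bases before the start: cttccacgCCTTATAAGGacatttgc

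*Vcl*, chr14:20929163-20929188, plus strand, 227 bases before the start: cactatgcCCTTATAAGGagcgcccc

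These genes, chosen for their sequences, encode a myosin light chain, calponin 2 and vinculin, all parts of or linked to the actin cytoskeleton. Their log2 fold changes were −4.08 for *Myl9* (adjusted p = 2.8e-07), −2.52 for *Cnn2* and −1.15 for *Vcl*, all called.

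Labelled reads of SRF and YAP targets fell in 33 of 39, with a median of −2.99 (17 of 39 and −1.68 when scaled by labelled reads). *Ctgf* had 871, 596 and 594 labelled normalised counts and then 2.76, 5.47 and 11.5 (−6.66 ± 0.48, adjusted p = 5.4e-16). *Ankrd1* had 72, 61.7 and 54.2 and then none, at least 23.6-fold lower. The labelled share of the summed reads of the list was 7.45% ± 0.612 and then 1.72% ± 0.143 (SD, n = 3 each), a 4.32-fold lower share, beside 2.50-fold for the whole library. The sum is weighted by its most abundant genes. Gene by gene, relative to the shift of the library, 1 of the 39 shares was called higher and 3 were called lower.

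**Figure D4:**
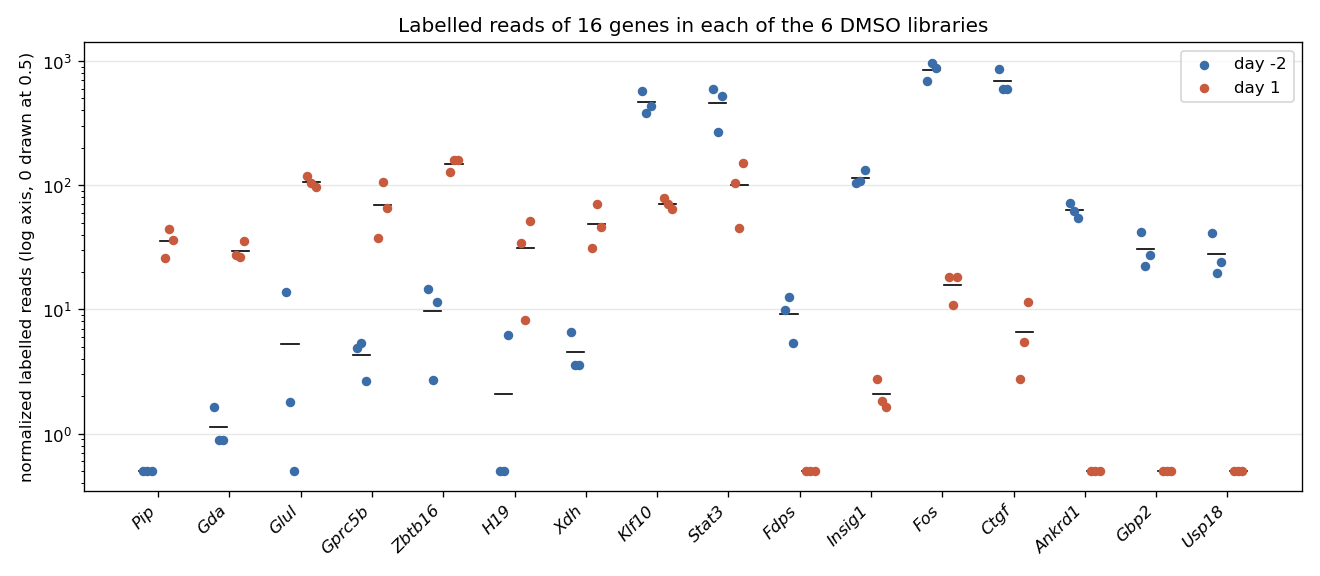
Labelled normalised counts, on the scale of total library sizes and on a log axis with 0 drawn at 0.5, for 16 genes in the 3 libraries of day −2 and of day 1. *Pip*, *Gda*, *Glul*, *Gprc5b*, *Zbtb16*, *H19* and *Xdh* lie higher at day 1, and *Klf10*, *Stat3*, *Fdps*, *Insig1*, *Fos*, *Ctgf*, *Ankrd1*, *Gbp2* and *Usp18* lie lower.

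Immediate early genes, which mitogens and stress switch on within minutes, were lower. Of 43 measured, 25 fell and 2 rose, with a median of −1.29, and in labelled reads 35 of 42 fell (23 of 42 when scaled by labelled reads). *Fos*, a subunit of AP-1, was at 2849.7, 4193 and 3684 normalised counts and then at 268, 204 and 223 (−3.95 ± 0.27, adjusted p = 9.5e-08). Its labelled reads were 697, 969 and 887 and then 18.4, 10.9 and 18.1 (−5.74 ± 0.40, adjusted p = 2.1e-16). *Ptgs2*, the gene of cyclooxygenase 2, fell from 1938, 3907 and 1519 to 92, 164 and 112 (−4.32 ± 0.40, adjusted p = 1.4e-06). *Fosl1*, another AP-1 subunit, was 1 of the 2 that rose (1.66), with *Btg1* (1.19), an antiproliferative factor. The summed labelled share of the list was 17.9% ± 1.02 at day −2 and 5.92% ± 0.281 at day 1. Gene by gene, relative to the shift of the library, none of the 42 shares was called.

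Of 21 p53 targets, 7 fell and 1 rose, with a median of −0.61. *Plk3*, the gene of a stress responsive kinase that the immediate early list also holds, fell from 561, 323 and 755 normalised counts to 53.3, 21.9 and 52.8 (−3.67 ± 0.42, adjusted p = 1.4e-05), and *Btg2*, shared in the same way, from 7291, 9801 and 8027 to 831, 1029 and 717 (−3.28 ± 0.22, adjusted p = 7.1e-08). *Cdkn1a*, which encodes the CDK inhibitor p21, and *Mdm2*, the p53 ligase, had log2 fold changes of −0.68 and −0.39 and were not called, *Cdkn1a* except with the replicate block (adjusted p = 0.0010). In labelled reads 11 of 17 fell, *Cdkn1a* and *Mdm2* among them (−2.46 and −2.08). Scaled by labelled reads, 5 of 17 fell, and *Mdm2* was not called (adjusted p = 0.0354).

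Chemokine and cytokine genes split. Of 27 measured, 11 fell and 6 rose, with a median of −0.72. *Ccl2*, the gene of the monocyte attractant MCP-1, fell from 3212, 4974 and 2516 normalised counts to 157, 229.5 and 153 (−4.31 ± 0.33, adjusted p = 2.4e-07). *Lif*, which encodes an interleukin 6 family cytokine, fell from 55.6, 34.9 and 40 to 1.84, 0 and 0, or from 152 reads to 2 in all, a ratio of 70.9 (95% exact counting interval 20.3 to 621). Among those that rose, *Lcn2* is the highest by fold. Labelled reads fell in 13 of 20 and rose in 1, with a median of −3.95 (7 fell and 1 rose when scaled by labelled reads, median −2.76).

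Matrix genes moved in both directions. Of 50 measured, 15 fell and 6 rose, with a median of −0.57, where 9.86% of all genes fell and 6.99% rose. *Col1a1*, the gene of the α1 chain of collagen I, fell from 140890.0, 146592 and 166260.0 normalised counts to 60103, 81488 and 68713 (−1.11 ± 0.20, adjusted p = 9.3e-04), while *Col4a1*, of basement membrane collagen, rose from 23977, 20903 and 25649 to 68573, 72998 and 71988 (1.60 ± 0.15, adjusted p = 2.4e-06). *Thbs2*, the gene of thrombospondin 2, fell from 5518, 5991 and 5038 to 304, 429 and 321 (−3.97 ± 0.19, adjusted p = 4.9e-09). *Timp3*, which encodes a metalloproteinase inhibitor, fell from 3664, 3748 and 3649 to 331, 267 and 272 (−3.67 ± 0.19, adjusted p = 9.9e-09). Fibrillar and basement membrane collagen thus went opposite ways in these 2 genes.

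The surface and lineage genes of pre-adipocytes were called in both directions. Of 24 measured, 4 rose and 5 fell, with a median of −0.48. Of all genes, 6.99% rose and 9.86% fell. *Pdgfrb*, the gene of a platelet derived growth factor receptor, fell from 3041, 2706 and 2971 normalised counts to 263, 348 and 275 (−3.30 ± 0.19, adjusted p = 1.8e-08). *Pdgfra*, its paralog, was at 2882, 2708 and 2728 and then at 3744, 4765 and 3439, higher in each library but not called (0.52 ± 0.17, adjusted p = 0.033). It was called with DESeq2 (adjusted p = 0.0092) and with all 24 libraries in the fit (adjusted p = 0.0045). *Dlk1*, the classical inhibitor of differentiation known as PREF-1, was at 66948, 35274 and 64491 and then at 49879.6, 35938 and 44968 (−0.35 ± 0.23, adjusted p = 0.31), and at 3569.9 ± 564 (SD, n = 3) at day 3. *Ly6a*, which encodes SCA-1, rose from 1055, 983 and 1044 to 4459, 3451 and 4358 (1.99 ± 0.19, adjusted p = 2.7e-06). In labelled reads, 10 of 19 genes of the list fell and none rose, where 18.9% of all genes fell. Scaled by labelled reads, 2 rose and 2 fell.

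Growth factor signalling genes were divided. Of 30 in TGF-β, BMP and Wnt signalling, 6 rose and 7 fell (median −0.56), and of 28 in insulin and IGF signalling, 8 rose and 4 fell (median 0.07). Of all genes, 6.99% rose and 9.86% fell. *Bmp4*, the gene of a morphogen that commits cells to the lineage, fell from 26.2, 27.7 and 16.9 normalised counts to 0, 0 and 0.825, or from 82 reads to 1, a ratio of 85.8 (95% exact counting interval 14 to 3213), though its call was lost without day 1 replicate A (adjusted p = 0.0106). *Tgfb3* fell from 1677, 1747 and 1658 to 257, 359 and 335 (−2.42 ± 0.22, adjusted p = 1.1e-06). *Irs1*, the gene of an insulin receptor substrate, fell from 1704, 1079 and 1846 to 481, 335 and 487 (−1.83 ± 0.28, adjusted p = 1.9e-04), while the receptors *Insr* and *Igf1r* were not called (−0.21 and −0.31). *Igfbp4*, which encodes an IGF binding protein, rose from 6499, 4576 and 8553 to 30608, 25482 and 34469 (2.21 ± 0.26, adjusted p = 1.7e-05), and its labelled reads rose too (1.73 ± 0.40, adjusted p = 7.1e-04), though not without day 1 replicate C (adjusted p = 0.0112).

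In the remaining lists, the counts are to be read against the 6.99% of all genes that rose and the 9.86% that fell in total reads. Of 69 cytosolic ribosomal protein genes, 5 rose and none fell (median 0.41), a share near that of all genes, and of 34 ribosome biogenesis genes, 8 rose and none fell (median 0.64). Of 48 genes of RNA polymerase II and elongation, 5 rose and none fell (median 0.21), and in labelled reads 5 of 40 fell (median −0.95), where 18.9% of all genes fell, and none when scaled by labelled reads (median 0.32). Of 33 genes of mRNA decay, 3 rose and 3 fell (median 0.10), shares near those of all genes. Among 14 genes of uridine uptake and salvage, which bear on how 4-thiouridine enters the RNA, *Uck1*, the gene of a uridine kinase, was called higher (0.77), although not when any library other than day 1 replicate A was left out (adjusted p from 0.012 to 0.0431), and *Upp1* and *Cmpk2* fell. *Upp1*, which encodes the enzyme that degrades uridine, went from 23.7, 18.8 and 26.6 normalised counts to 0.92, 0 and 0, or from 80 reads to 1, a ratio of 75.2 (95% exact counting interval 13.7 to 3135). The *Cmpk2* call was lost without replicate A or C of either day (adjusted p from 0.0123 to 0.0296). The main uridine transporters *Slc29a1* and *Slc29a2* were not called (−0.39 and 0.47). The part of these genes in the lower labelled share was not tested.

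Of 28 genes of mitochondrial and lipid oxidation, 6 rose and 1 fell (median 0.48). *Ucp2*, which encodes an uncoupling protein of the inner mitochondrial membrane, went from 523, 501 and 723 normalised counts to 2677, 2402 and 2849.6 (2.18 ± 0.24, adjusted p = 8.7e-06). Of 19 clock genes, 2 rose and 7 fell (median −0.82). *Per2*, a repressor of the clock, rose from 277, 151 and 263 to 796, 657 and 785 (1.69 ± 0.26, adjusted p = 2.3e-04), and *Dbp*, a clock output factor, fell from 785, 349.7 and 866 to 90.1, 39.2 and 109 (−3.07 ± 0.46, adjusted p = 1.6e-04). The hour of harvest was not given in the sources used here.

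Outside the lists, *Sorbs2*, the gene of an adaptor of the actin cytoskeleton, had the lowest fitted change of all named genes. It was at 194, 241 and 131 normalised counts at day −2 and at 0.92, 0 and 0 at day 1, or 654 reads against 1, a ratio of 615 (95% exact counting interval 115 to 25358), and its counted 3′UTR lies at chr8:45825807-45827906 on the plus strand. *Gpr176*, which encodes an orphan receptor, went from 259, 299 and 272 to 4.6, 6.38 and 0 (−6.23 ± 0.60, adjusted p = 2.4e-06).

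Among labelled reads, the rises chosen by the rule were those of *Pip*, *Ren1*, *Gda*, *Glul*, *Gprc5b*, *Zbtb16*, *H19* and *Xdh*. *Pip* had no labelled read at day −2 and 25.7, 44.6 and 36.3 labelled normalised counts at day 1, at least 13.7-fold higher. *Ren1* had 3.27, 1.79 and 5.33 and then 389.9, 254 and 465 (6.69 ± 0.49, adjusted p = 5.4e-16). The labelled share of *Ren1* at day 1 was 34.1%, 35.1% and 33.5%, over 30% in each library, beside 28.6%, 40% and 85.7% of the 26 reads counted in all at day −2, and whether all of its conversions come from the label was not tested. *Gda*, the gene of guanine deaminase, had 1.64, 0.894 and 0.888 and then 27.6, 26.4 and 35.5 (4.56 ± 0.75, adjusted p = 5.5e-06). *Xdh*, the gene of xanthine dehydrogenase, had 6.55, 3.58 and 3.55 and then 31.3, 70.1 and 46.2 (3.39 ± 0.61, adjusted p = 2.2e-05). Both encode enzymes of purine breakdown, and both also rose in total reads (5.07 and 2.90). *H19*, an imprinted non-coding RNA, varied widely, with 0, 0 and 6.22 and then 34, 8.2 and 51.1, and its call was lost with DESeq2 (adjusted p = 0.0759) and without day −2 replicate A or B or day 1 replicate A or C (adjusted p from 0.0125 to 0.021).

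The labelled falls chosen by the rule were those of *Ankrd1*, *Edn1*, *Frk*, *Gbp2*, *Gas2*, *Cryab*, *Usp18* and *Acot2*. *Edn1*, the gene of endothelin 1, had 36.8, 61.7 and 41.7 labelled normalised counts and then none, at least 17.6-fold lower. *Frk*, which encodes a Src family kinase, had 37.6, 24.1 and 35.5 and then none, at least 12.2-fold lower, and its total reads fell from 577, 681 and 499 to 189, 165 and 186. *Acot2*, the gene of a mitochondrial acyl-CoA thioesterase, had 95.7, 91.2 and 87.9 and then 0.92, 0 and 0, or 318 labelled reads against 1, a ratio of 299 (95% exact counting interval 55.5 to 12350), and its total reads fell as well (−2.71 ± 0.19, adjusted p = 1.4e-07). *Frk* and *Acot2* thus kept part of their mRNA at day 1 with almost no labelled read. At day 7, *Acot2* stood at 3103 ± 555 total normalised counts.

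**Figure D5:**
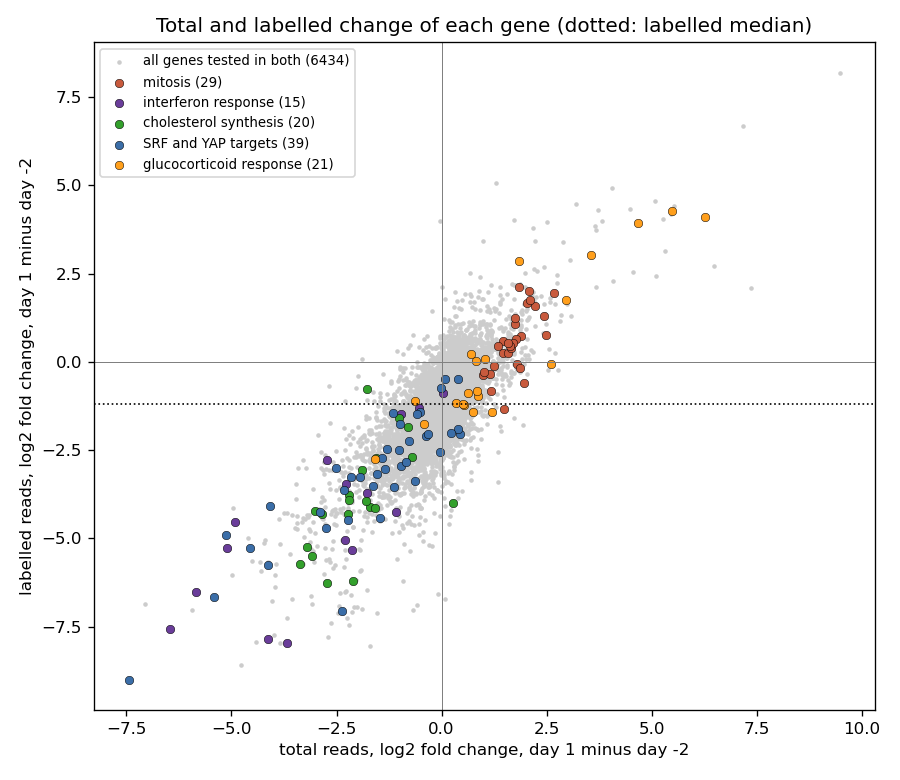
Log2 fold change of total reads (horizontal) and of labelled reads on the scale of total library sizes (vertical), day 1 minus day −2, for the 6434 genes tested in both, with genes of 5 lists in colour. The cloud is centred near −1.20 on the vertical axis, the 29 mitosis genes lie to the right of 0, and most of the 15 interferon, 20 cholesterol and 39 SRF and YAP genes to the lower left.

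In the 6434 genes tested in both, 35 rose in total and labelled reads, 482 fell in both, 501 rose only in total reads by the test, 287 fell only in total reads and 735 fell only in labelled reads. Only 1 gene rose in total and fell in labelled reads. The labelled calls here are on the scale of total library sizes, where the labelled median was −1.20. Scaled by labelled reads, 190 genes were lower in all (2.95%), and the pairs were not counted on that scale. The labelled reads are part of the total reads of the same libraries, so these numbers are a description.

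Whether labelled and unlabelled reads of a gene changed differently was tested in 1 model, relative to the shift of the whole library. By this test the labelled share of 50 genes rose (0.777%) and that of 15 fell (0.233%), of 6434. Of 31 ribosomal protein genes, 9 were called higher. Their summed labelled share over all 69 measured was 0.814% ± 0.0977 at day −2 and 0.652% ± 0.0206 at day 1 (SD, n = 3 each), lower by 1.25-fold where the library was lower by 2.50-fold. The part of conversions that arise without the label was not tested.

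Among genes whose share rose beyond the library, *Aldh4a1*, which encodes a proline degrading dehydrogenase, had labelled shares of 9.77%, 9.33% and 8.15% at day −2 and of 12%, 19.6% and 18.6% at day 1 (2.34 on the log2 scale, adjusted p = 3.0e-07). Its total reads rose from 435, 268 and 447 to 874, 689 and 898 normalised counts (1.10 ± 0.22, adjusted p = 0.0016). *Crot*, the gene of carnitine octanoyltransferase, had 11.2%, 9.17% and 13.7% and then 11.7%, 19.2% and 27.3% (2.21, adjusted p = 0.0029), with total reads of 337, 419 and 369 and then 267, 409 and 236. Both its labelled shares and its total reads overlapped between the days, and the total reads were not called (adjusted p = 0.42). *Mad2l2* and *Cd320* had 2 and 1 labelled reads over day −2, so their shares rest on the day 1 libraries.

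Among genes whose share fell beyond the library, *Stat3*, the gene of the transcription factor that cytokines of the interleukin 6 family activate, had labelled shares of 9.62%, 7.48% and 7.57% at day −2 and of 1.11%, 0.755% and 1.57% at day 1 (−1.64, adjusted p = 1.9e-05). Its total reads were 6140.3, 3563 and 6914 normalised counts and then 9344, 6034 and 9587, which was not called (adjusted p = 0.11). *Klf10*, which encodes a TGF-β inducible zinc finger factor, had shares of 27.4%, 26% and 29.1% and then 6%, 4.63% and 5.34% (−1.42, adjusted p = 0.0032), with total reads of 2115, 1464 and 1500.0 and then 1319, 1514 and 1206 (adjusted p = 0.34). *Ifi204*, the gene of a DNA sensor of the interferon inducible family with near paralogs, went the other way from the interferon list in total reads, from 542, 877 and 686 to 4509, 5357 and 4526 (2.77 ± 0.23, adjusted p = 6.4e-07). Its labelled share was 9.35%, 6.93% and 8.55% and then 0.938%, 0.901% and 1.18% (−1.81, adjusted p = 0.0036). In all 3 genes the shares of the 2 days did not overlap, and total reads rose by the test in *Ifi204*, and in *Stat3* with the replicate block (adjusted p = 0.0030).

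The ML-792 cells allow a test of whether induction at day 1 differed with SUMO conjugation inhibited. In total reads, 487 of 26563 entries (1.83%) had a different change (edgeR's test of the interaction, adjusted p under 0.1), which are 315 of 13331 genes (2.36%), and with the replicate block 1442 entries. Of these 315 genes, 152 were called in DMSO, 77 higher and 75 lower. None of the 49 mitosis, 48 DNA replication, 24 cholesterol or 69 ribosomal protein genes was among them. The ribosome biogenesis, Pol II and uridine lists held none either. At 2.36% of all genes, lists of this size would hold few, so these absences are not a result about the lists. The largest shares were those of chemokines and cytokines (7 of 27), pre-adipocyte identity (6 of 24) and matrix genes (9 of 50). Members of the lists were not counted with the replicate block. *Rgs2* rose less in ML-792, from 4396 ± 577 to 9737 ± 1279 normalised counts (SD, n = 3; interaction −1.70 on the log2 scale, adjusted p = 1.7e-04). *Lcn2* rose more, from 39.5 ± 5.38 to 8882 ± 1229 (interaction 1.55, adjusted p = 0.0039), and *Ly6a* too, from 1149.5 ± 171 to 15894 ± 1209 (interaction 1.80, adjusted p = 9.3e-05). *Ear2*, which rose to between 721 and 879 in DMSO, reached 115 ± 19 in ML-792 (interaction −3.12, adjusted p = 0.0023). In labelled reads 4 of 10589 entries differed (0.0378%), 17 with the replicate block, and *Rgs2* was among the genes.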

How the data were processed

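Total RNA of 3T3-L1 cells was read by 3′ end sequencing after alkylation of 4-thiouridine. Per the study's methods, SlamDunk mapped reads to mm10 and counted them over RefSeq 3′UTRs, and the submitters' processing notes name bcl2fastq 2.17.1.14. The deposited tables hold raw counts of total reads and of labelled reads for 91830 entries and 26995 symbols. Entries that overlap may share reads. In each table, 6 columns matched no sample and were not used.

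Entries were kept by filterByExpr (at least 10 reads, 15 in all, over 8 conditions). Counts were scaled by TMM and fitted with edgeR 4.0.16 (R 4.3.3, robust quasi-likelihood, 12 DMSO libraries), with Benjamini-Hochberg adjustment over all entries and a threshold of 0.01. The labelled counts used the total effective library sizes. The interaction was fitted over 24 libraries at a threshold of 0.1. The standard error is the fold change over the square root of F. A group with no read was set to a floor of 3 reads per library, and intervals cover counting error only. DESeq2 1.42.0 was an alternative. The fits of total reads, labelled reads and labelled shares were run on simulated data. The simulations had a fixed spread and no shift of the labelled library, so they give no error rates for these data. Replicate letters may pair the samples. Deviations from the day means correlated at 0.224, 0.465 and 0.308 for A, B and C in total reads. Unlike letters also correlated, at 0.178 for day −2 C with day 1 A and at 0.125 for day −2 A with day 1 C. The unlike pairs with B were negative (−0.364 to −0.256). In labelled reads, like letters were at 0.0433 (A), 0.161 (B) and 0.0965 (C). Day −2 C with day 1 A was at 0.0453, day −2 A with day 1 C at 0.0374, and unlike pairs with B at −0.123 to −0.0689. The deviations of a day sum to 0, so these values are not independent. Pairing of A and of C is thus not settled. The main fits held no term for the letter, and the block was an alternative. Alternatives were other filters, scalings, fits and left-out libraries.

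Genes were named by a rule: the 10 highest and 10 lowest total changes and the 8 highest and 8 lowest labelled changes among called genes without overlap (at least 100 and 20 normalised counts), the 6 highest and 6 lowest labelled shares, and in each list the first 4 genes and the 4 largest called changes. The members, lists and motifs were chosen with earlier results of these data known. Some members of the lists are not reported here by name.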

Additional observations from a re-analysis of the deposited data

Results flagged for a closer look

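The change from day −2 to day 1 differed between ML-792 and DMSO by a test of the difference in 487 entries of total reads and in 4 entries of labelled reads. Among the genes named by the rule, the total log2 fold change was higher in ML-792 than in DMSO by 0.86 for *Ccnd1*, 2.51 for *Grem1*, 2.00 for *Inhba*, 1.58 for *Klf10*, 1.55 for *Lcn2*, 1.80 for *Ly6a*, 2.54 for *Mmp13*, 1.65 for *Ppargc1a*, 3.28 for *Rsad2* and 0.97 for *Thbs2*. The difference was −3.12 for *Ear2*, −2.02 for *Igf1*, −3.08 for *Igfbp5*, −1.34 for *Osr2*, −0.81 for *Pdgfrb*, −1.70 for *Rgs2*, −0.77 for *Slc2a1*, −1.22 for *Timp3* and −0.98 for *Zfp36l1*. The difference for *Rsad2* rests on few reads at day 1, with 9.03 ± 4.12 normalised counts in ML-792 (SD, n = 3) and fewer in DMSO. *Rsad2* fell in ML-792 too (−3.18). In labelled reads, *Rgs2* had a difference of −1.83. Groups of 3 were not tested for outlying samples.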

How the results depend on the processing

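No fold change of a called named gene changed sign under the alternatives run, but the labelled medians of 9 lists and of all genes turned from below to above 0 when scaled by labelled reads (adipocyte function, glucocorticoid response, DNA replication, G1 regulators, insulin and IGF, ribosome biogenesis, Pol II, mRNA decay and mitochondrial oxidation). With DESeq2, the interaction had 865 entries in total reads and 35 in labelled reads. With a single entry per gene tested, which tests fewer features, 2402 genes were called in total reads, 1276 in labelled reads and 7 in the labelled interaction. With the replicate block, the numbers were 5628 for total reads, 1442 for the total interaction and 17 for the labelled interaction, and the total interaction turned from 263 higher and 224 lower to 620 higher and 822 lower. Of 157 named genes called in total reads, 1 lost its call under the block, and of 116 called in labelled reads also 1, while 14 and 5 other named genes gained one. Scaled by labelled reads, 538 labelled entries were called, 263 higher and 275 lower, and 41 of the 116 named genes lost their call. With labelled and unlabelled reads both scaled by total reads, 1385 shares were called, since the shift of the library then stays in.

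Leaving out 1 of the 6 libraries gave 2399 to 3257 entries for total reads, 1069 to 1996 for labelled reads, 30 to 59 for labelled shares (87 with all), 356 to 479 for the total interaction and 0 to 6 for the labelled interaction. The difference in library share was −2.15 to −1.68 percentage points. Day −2 replicate A moved most of these, with 2399, 1069 and 30 entries without it. Without day 1 replicate A, 1278 labelled entries and 45 shares were called. For the labelled shares, the numbers were 49 without day −2 replicate B, 45 without day 1 replicate B and 43 without day −2 replicate C. The labelled interaction had 2 entries without replicate A of either day and 0 without day −2 replicate C. The cause was not tested. Labelled reads limit the precision: within a day, libraries correlated at 0.692 to 0.880 in labelled and at 0.962 to 0.982 in total reads (Pearson, across genes, which are not independent replicates). Of the tested entries, 186 had over 30% labelled reads in a library.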
